A study of Mus musculus with 8 samples.

Results

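The genes described here are a module of 34 genes of DNA replication and S phase, the part of the cell cycle in which the genome is copied. They were chosen by gene symbol: subunits of the MCM helicase, the origin proteins that load it, replicative polymerases, the sliding clamp and its loader, enzymes of nucleotide supply, and regulators of S phase entry. Of the 34, 33 had a transcript cluster (the array's unit for a gene) among the 22206 measured, each with a single cluster. Mcm7, a helicase subunit, had no cluster under its symbol and has no values here.

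The cells were mouse tail-tip fibroblasts (TTFs) taken postnatally, in which retroviruses delivered GHMT, the cardiac transcription factors Gata4, Hand2, Mef2c and Tbx5, which push fibroblasts towards a cardiomyocyte-like state. All 8 cultures carried GHMT, so every comparison is between transduced cultures, and untransduced cells are not analysed here. TTF set 1 held 4 arrays: GHMT with no compound named, diclofenac (a cyclooxygenase inhibitor, which blocks prostaglandin synthesis), an antagonist of EP4 (a receptor for prostaglandin E2, PGE2), and diclofenac with PGE2. TTF set 2 held the other 4: GHMT, the EP4 antagonist, a TGFb inhibitor and a Wnt inhibitor. With 2 arrays each for GHMT and the EP4 antagonist and 1 for every other group, the number of arrays limits the precision. The labels do not say how the TTF sets differ or whether they were independent experiments, so p-values measure only the spread between these samples; the sources used here do not give the age of the animals, doses or harvest time.

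Before a cell copies its DNA, the origin recognition complex (which contains Orc1 and Orc6) with Cdc6 and Cdt1 loads the MCM ring onto origins. Cdc45 and the GINS complex then switch the ring into an active helicase, DNA polymerases alpha, delta and epsilon synthesise the strands on a PCNA clamp placed by replication factor C, and Fen1 and Lig1 join the fragments of the lagging strand. Most of these genes are transcribed as cells pass from G1 into S phase, under E2F transcription factors that are released when cyclin-CDK complexes inactivate the retinoblastoma proteins. In fibroblasts their transcript level is commonly used as a sign of proliferation. In a culture's bulk RNA, fewer cells in S phase and less RNA per cell cannot be told apart.

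Promoters of the module were searched for E2F motifs in windows of 300 bases (250 before and 50 after the gene start) from RefSeq, build GRCm38.p6, which held 29 of the 34 genes. An E2F motif (TTTGGCGC, TTTGCCGC, TTTCGCGC or TTTCCCGC, on either strand) was present for 12 of the 29 genes, or 41.4%, against 2.6% of all 27025 genes in the table. The 12 genes are Mcm3, Mcm5, Mcm6, Mcm7, Orc1, Cdc6, Cdt1, Pola1, Pold1, Rfc3, Lig1 and Uhrf1. A CCAAT box (CCAAT on either strand) was present for 16 of 29, or 55.2%, against 41.1% of all genes. The stretches below, each ending at the base before the gene start, are examples of members with an E2F match wholly upstream. Mcm7, Pola1, Rfc3 and Uhrf1 also had such a match and are not shown. Capitals mark E2F and CCAAT letters. Mcm6 lies at chr1:128359706-128359825 (minus strand), Mcm5 at chr8:75109346-75109508 (plus), Orc1 at chr4:108579394-108579453 (plus) and Cdc6 at chr11:98908003-98908150 (plus).
Mcm6: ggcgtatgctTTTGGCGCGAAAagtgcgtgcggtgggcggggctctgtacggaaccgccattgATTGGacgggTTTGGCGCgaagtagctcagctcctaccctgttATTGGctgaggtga
Mcm5: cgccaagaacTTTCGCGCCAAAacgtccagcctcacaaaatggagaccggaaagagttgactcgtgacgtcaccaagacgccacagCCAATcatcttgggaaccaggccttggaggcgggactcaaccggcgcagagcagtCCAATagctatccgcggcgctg
Orc1: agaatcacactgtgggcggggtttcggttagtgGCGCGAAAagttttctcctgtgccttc
Cdc6: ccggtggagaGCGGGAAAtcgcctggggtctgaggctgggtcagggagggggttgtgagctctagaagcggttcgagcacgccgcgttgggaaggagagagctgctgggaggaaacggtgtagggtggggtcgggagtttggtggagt
In Mcm6 an overlapping pair of E2F matches on opposite strands began 110 and 106 bases before the start, and a further match began 47 bases before it. Mcm5 had a similar overlapping pair, beginning 153 and 149 bases before its start. A match of letters describes the sequence and is no evidence of binding.

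Values are log2 array signals, so a difference of 1 is 2-fold, and the level of a gene is compared only with the same gene in other arrays. A background level was set for each array at the 95th percentile of the 23 probe sets that read background (5.73 to 5.99). Of the 33 measured members, 21 lay above background in all 8 arrays, 7 in some (Mcm10, Cdc6, Gins2, Orc1, Pola1, Lig1, E2f1) and 5 in none (Gins1, Tk1, Pole, Pold1, Rfc3), whose differences are those of dim signals. The fibroblast label held: 9 of 9 measured fibroblast markers of 10 listed were above background in every array. Of the markers of other cells, 9 of 10 leukocyte, 7 of 7 endothelial and 6 of 6 keratinocyte genes lay at background in all 8 arrays. Cardiomyocyte markers did not: 5 of 6 were above background in all 8 arrays. Over clusters of the 4 transduced factors the mean was 11.83 to 12.88, the Gata4 cluster being at background throughout. The TTF sets are compared within themselves, because levels differed between sets: GHMT of set 2 minus GHMT of set 1 had a median of -0.16 over all clusters, of 0.27 over the 8813 clusters above background in all arrays, and of 0.40 over the 21 members above background in all.

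**Figure D1:**
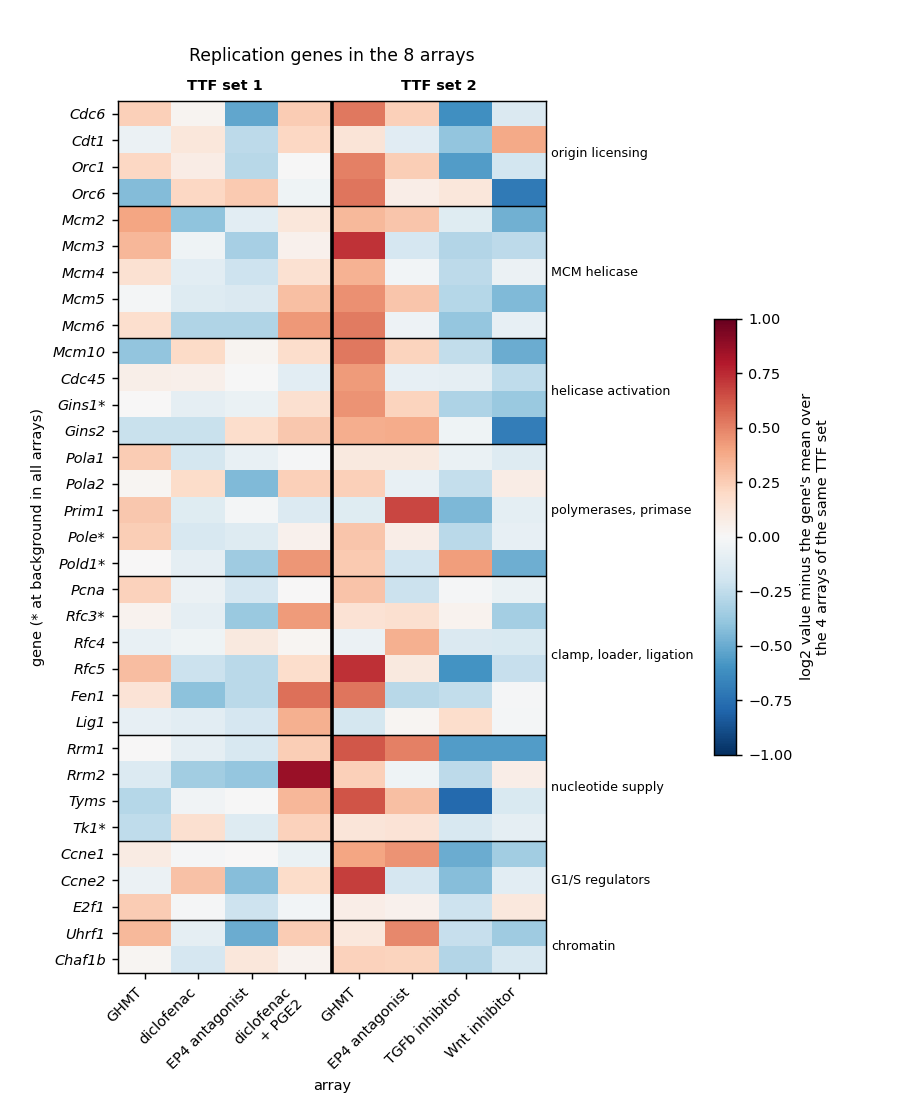
Colour gives each gene's log2 value minus its mean over the 4 arrays of the same TTF set, red higher and blue lower; rows are the 33 measured genes grouped by role, columns the 8 arrays. In set 1 the EP4 antagonist array was the lowest for 18 genes, against 26.2% of the clusters above background in all arrays. Diclofenac plus PGE2 was the highest for 16, against 32.4%. In set 2 GHMT was the highest for 22, against 26.6%.

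Across the comparison that used most arrays, replication genes were mostly lower in 3 arrays with PGE2-EP4 signalling inhibited (1 with diclofenac and 2 with the EP4 antagonist) than in 3 with it active (2 with GHMT and 1 with diclofenac plus PGE2). The difference was negative for 27 of 33 members, against 51.5% of all transcript clusters, and its median was -0.22 on the log2 scale, against -0.01 over all clusters. No member passed the threshold: limma with the TTF set as a block called 0 of 33 at an adjusted p under 0.05, while it called 0.378% of all clusters. At an unadjusted p under 0.05, 8 members were lower (Mcm3, Mcm4, Mcm6, Cdc6, Rrm2, Pold1, Rfc5 and Fen1) and 0 higher, against 4.41% of all clusters lower and 4.26% higher. Pold1 lay at background in every array, and Cdc6 exceeded it in only 2. The arms pool different treatments, with 4 arrays from set 1 and 2 from set 2.

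Within both sets the arms separated for 14 members: both inhibited arrays of set 1 lay under both active arrays, and the EP4 antagonist lay under GHMT in set 2. The same held for 10.6% of all clusters. The 14 were Mcm2, Mcm3, Mcm4, Mcm5, Mcm6, Pcna, Cdc6, Gins1, Rrm1, Rrm2, Pole, Pold1, Rfc5 and Fen1. Of these, Gins1, Pole and Pold1 were at background in all 8 arrays, and Cdc6 exceeded it in only 2. The mirror pattern, inhibited above active in both sets, was seen in 0 members, against 9.43% of all clusters.

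The MCM subunits form the ring that unwinds DNA, and all 5 measured subunits were in that group of 14. Mcm6 read 10.74 with GHMT, 10.27 with diclofenac, 10.27 with the EP4 antagonist and 11.00 with diclofenac plus PGE2 in set 1, and 10.83 with GHMT and 10.26 with the EP4 antagonist in set 2. Within each set every inhibited array lay under every active array, as in 10.6% of all clusters. The fitted difference was -0.59 ± 0.15 (SE, limma adjusted p = 0.203). Mcm3 read 7.18, 6.81, 6.52 and 6.89 in the same order in set 1, and 7.59 and 6.70 in set 2, a fitted difference of -0.54 ± 0.18 (limma adjusted p = 0.369). Diclofenac and diclofenac plus PGE2 were close for Mcm3, while the EP4 antagonist was the lowest array in set 1.

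Mcm2 was at 9.22 with GHMT, 8.42 with diclofenac, 8.72 with the EP4 antagonist and 8.94 with diclofenac plus PGE2 in set 1, but at 9.63 and 9.58 with GHMT and the EP4 antagonist in set 2. Its separation of the arms was thus almost wholly one of set 1 (-0.36 ± 0.18, limma adjusted p = 0.635). Mcm4 was at 9.14, 8.88, 8.78 and 9.14 in set 1 and at 9.54 and 9.16 in set 2 (-0.33 ± 0.15). Mcm5 was at 7.72, 7.61, 7.60 and 8.04 in set 1 and at 7.70 and 7.52 in set 2 (-0.24 ± 0.16), the smallest difference among the MCM subunits.

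Loading factors were less uniform than the ring. Cdc6, which recruits the helicase to origins, was at 5.87 with GHMT, 5.66 with diclofenac, 5.11 with the EP4 antagonist and 5.88 with diclofenac plus PGE2 in set 1; only the GHMT and the PGE2 arrays exceeded background there, and both arrays of set 2 (5.57 and 5.28) were under it. Cdt1, the partner of Cdc6 in loading, was at 7.35, 7.52, 7.14 and 7.61 in set 1 and at 7.28 and 7.04 in set 2. Its diclofenac array lay above GHMT, so the arms overlapped (-0.18 ± 0.17, limma adjusted p = 0.845). Orc6 ran against most of the module in set 1, with 7.30 in GHMT below 7.94 with diclofenac and 7.99 with the EP4 antagonist and 7.69 with diclofenac plus PGE2, and turned in set 2, with 7.54 in GHMT and 7.07 with the EP4 antagonist.

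Helicase activation genes differed little. Over Mcm10, Cdc45, Gins1 and Gins2 the fitted differences of inhibited minus active ran from -0.18 to 0.04, with Gins1 at background in all arrays. Mcm10, which helps convert the loaded ring, was at 5.66 with GHMT, 6.24 with diclofenac, 6.08 with the EP4 antagonist and 6.23 with diclofenac plus PGE2 in set 1, and at 6.08 and 5.77 in set 2. Gins2, a subunit of GINS, was at 5.42, 5.42, 5.82 and 5.91 in set 1, where only the array with PGE2 exceeded background, and at 6.57 and 6.58 in set 2. Neither gene separated the arms. Among polymerase genes, Pola1, Pola2 and Prim1 of the polymerase alpha-primase complex that starts each strand, and Pole and Pold1 of the leading and lagging strand enzymes, fitted differences ran from -0.45 (Pold1) to 0.17 (Prim1). Pold1 was at background throughout, at 4.27 with GHMT, 4.18 with diclofenac, 3.91 with the EP4 antagonist and 4.71 with diclofenac plus PGE2 in set 1, and at 4.21, 3.75, 4.36 and 3.46 with GHMT, the EP4 antagonist, the TGFb and the Wnt inhibitor in set 2.

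In this comparison the largest fitted difference of the module was in a gene of Okazaki fragment maturation. Fen1, the flap nuclease that trims RNA primers, was at 7.71 with GHMT, 7.16 with diclofenac, 7.30 with the EP4 antagonist and 8.12 with diclofenac plus PGE2 in set 1, and at 7.83 and 7.02 in set 2. Within each set the inhibited arrays lay under the active arrays, as in 10.6% of all clusters. Fen1 had the lowest adjusted p of the members (-0.73 ± 0.17, limma adjusted p = 0.139, from 0.0653 to 1 over the alternatives). Rfc5, a subunit of the clamp loader, was at 7.43, 6.91, 6.85 and 7.30 in set 1 and at 7.75 and 7.12 in set 2. The arms of Rfc5 were also apart within each set (-0.53 ± 0.15, limma adjusted p = 0.254). Its partner Rfc4 stood apart: 7.64, 7.67, 7.81 and 7.73 in set 1 and 7.33 and 7.74 in set 2, the EP4 antagonist being the highest array of either set.

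Pcna, the clamp itself, was at 14.11 with GHMT, 13.82 with diclofenac, 13.71 with the EP4 antagonist and 13.88 with diclofenac plus PGE2 in set 1, and at 14.39 and 13.89 in set 2. The arms of set 1 were separated by only 0.06 between diclofenac and diclofenac plus PGE2 (-0.32 ± 0.16, limma adjusted p = 0.628). Of the nucleotide supply genes, Rrm2, the S phase subunit of ribonucleotide reductase, was at 10.68, 10.47, 10.43 and 11.68 in set 1 and at 11.76 and 11.48 in set 2 (-0.58 ± 0.24, limma adjusted p = 0.541). The array with PGE2 stood well above the other 3 arrays of set 1, and Rrm2 was -0.26 in the EP4 antagonist contrast, which leaves that array out. Tk1 (thymidine kinase) was at background in all 8 arrays, at 4.54, 4.95, 4.66 and 5.02 in set 1 and at 4.09, 4.11, 3.81 and 3.88 with GHMT, the EP4 antagonist, the TGFb and the Wnt inhibitor in set 2. Rrm1, the large subunit of ribonucleotide reductase, was at 11.28, 11.19, 11.12 and 11.52 in set 1, a narrower spread than that of Rrm2.

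The regulators of S phase entry showed little of the pattern. Ccne1 (cyclin E1) was at 8.43 with GHMT, 8.34 with diclofenac, 8.35 with the EP4 antagonist and 8.28 with diclofenac plus PGE2 in set 1 and at 9.57 and 9.63 in set 2. Within a set, these arrays of the pooled comparison differed by at most 0.15. Ccne2 (cyclin E2) was at 7.30, 7.65, 6.93 and 7.54 in set 1 and at 8.32 and 7.46 in set 2. The EP4 antagonist array was the lowest of set 1 and lay under GHMT in set 2. Diclofenac, however, was the highest of set 1. E2f1 was at 6.03, 5.77, 5.57 and 5.75 in set 1, where the diclofenac, EP4 antagonist and diclofenac plus PGE2 arrays were at background, and at 6.79 and 6.77 in set 2.

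The EP4 antagonist against GHMT alone asked what the receptor contributes, in 2 arrays a group that are also part of the pooled comparison. The antagonist was lower for 26 of 33 members in set 1 (median -0.33) and for 24 of 33 in set 2 (median -0.24), against 50.9% and 50.1% of all clusters. It was lower in both sets for 20 members, against 26.2% of all clusters, and higher in both for 3 (Rfc4, Tk1 and Gins2), against 23.9%. Tk1 was at background in all arrays, and Gins2 was at background in both arrays of set 1 and differed by 0.01 in set 2. Gins1, Pole and Pold1, among those lower, were at background in all arrays. The largest of those lower in both, ranked by the smaller of the 2 differences, were Mcm3 (-0.66 in set 1 and -0.89 in set 2), Rfc5 (-0.58 and -0.63), Mcm6 (-0.47 and -0.57), Fen1 (-0.41 and -0.81), Pcna (-0.40 and -0.50) and Ccne2 (-0.37 and -0.86).

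By limma with the TTF set as a block, 0 of 33 members passed, as did 0% of all clusters, and the lowest adjusted p of a member was 0.746 for Mcm3 (-0.78 ± 0.20, n = 2 arrays each). At an unadjusted p under 0.05, 5 members were lower (Mcm3, Mcm6, Rfc5, Fen1 and Ccne2) against 2.91% of all clusters, and 0 were higher against 2.68%. Without the TTF set in the fit, limma again called 0 members in either comparison, with 0 members at an unadjusted p under 0.05 for the EP4 antagonist and 3 for the pooled arms.

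**Figure D2:**
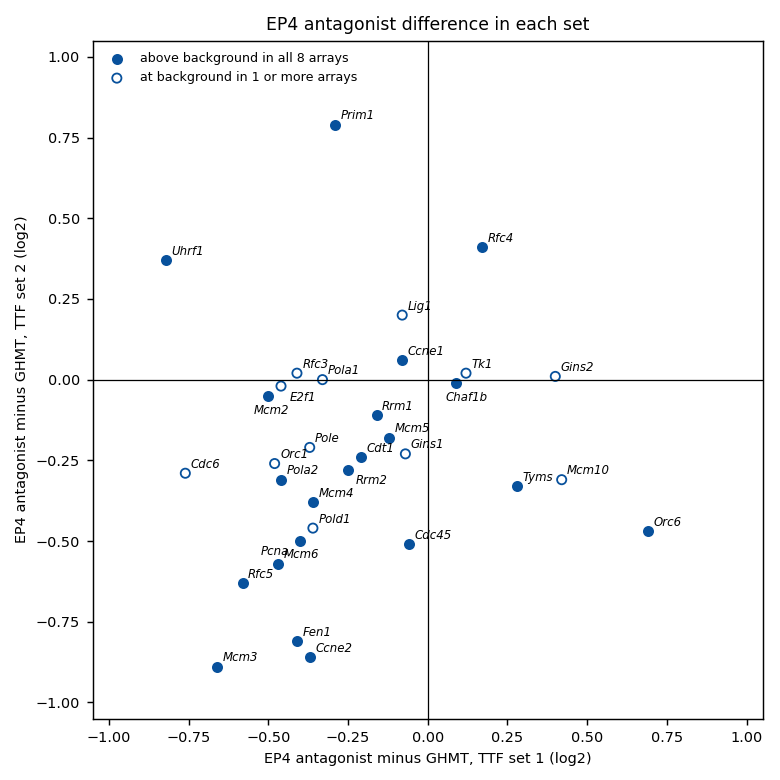
Each point is a gene, with the EP4 antagonist minus GHMT difference (log2) of set 1 on the horizontal and of set 2 on the vertical axis; filled points are above background in all 8 arrays. Of the 33 genes, 20 fall at the lower left, lower in both sets, and Mcm3 lies farthest into it.

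In set 1, diclofenac was compared with GHMT and with diclofenac plus PGE2, 1 array each, which gives differences with no replicate check and no test. Diclofenac was lower than GHMT for 24 of 33 members, against 50.9% of all clusters (median -0.13, against -0.01 over all clusters). By 2-fold or more, 0 members were lower or higher, against 0.766% and 1.04% of all clusters. With PGE2 added, 25 of 33 members were higher than with diclofenac alone, against 50.3% of all clusters (median 0.20, against 0.01). Of the members, 1 (Rrm2, by 1.21) was at least 2-fold higher, against 0.847% of clusters, and 0 were 2-fold lower, against 1.31%. These comparisons share the diclofenac array, so a low reading there would enter both with opposite signs.

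The largest differences of diclofenac from GHMT were Mcm2 (-0.80), Orc6 (0.64), Mcm10 (0.58, with GHMT at background, at least 1.42-fold) and Fen1 (-0.55). Those of PGE2 added to diclofenac were Rrm2 (1.21), Fen1 (0.96), Mcm6 (0.73) and Pold1 (0.53, at background). Each of the 5 MCM subunits and each of the 6 clamp, loader and maturation genes was higher with PGE2 than without. Over all clusters, 50.3% were higher. For Mcm3 (0.08), Pcna (0.06) and Rfc4 (0.06) the difference was small. Rfc3 was at background in all arrays, and Lig1 was at background with diclofenac alone. Ccne1, Ccne2 and E2f1 differed by -0.11 to -0.02. Set against GHMT directly, diclofenac plus PGE2 was higher for 20 of 33 members, or 60.6%. That compares with 48.7% of all clusters and 55.1% of those above background in all arrays. The median was 0.16, against 0.00 over all clusters and 0.05 over those above background. Rrm2 (1.00) and Tyms (0.62) were the largest. Rrm2 was the 1 member at least 2-fold higher, against 0.892% of clusters, and 0 were 2-fold lower, against 0.923%. For members above background in both arrays the median was 0.05.

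Tyms, which makes thymidylate, was at 9.40 with GHMT, 9.65 with diclofenac, 9.68 with the EP4 antagonist and 10.02 with diclofenac plus PGE2 in set 1. All treated arrays lay above GHMT, so that the array with PGE2 did not return Tyms to the GHMT level. Mcm2, in contrast, was highest with GHMT (9.22), lowest with diclofenac (8.42) and between them with PGE2 (8.94).

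**Figure D3:**
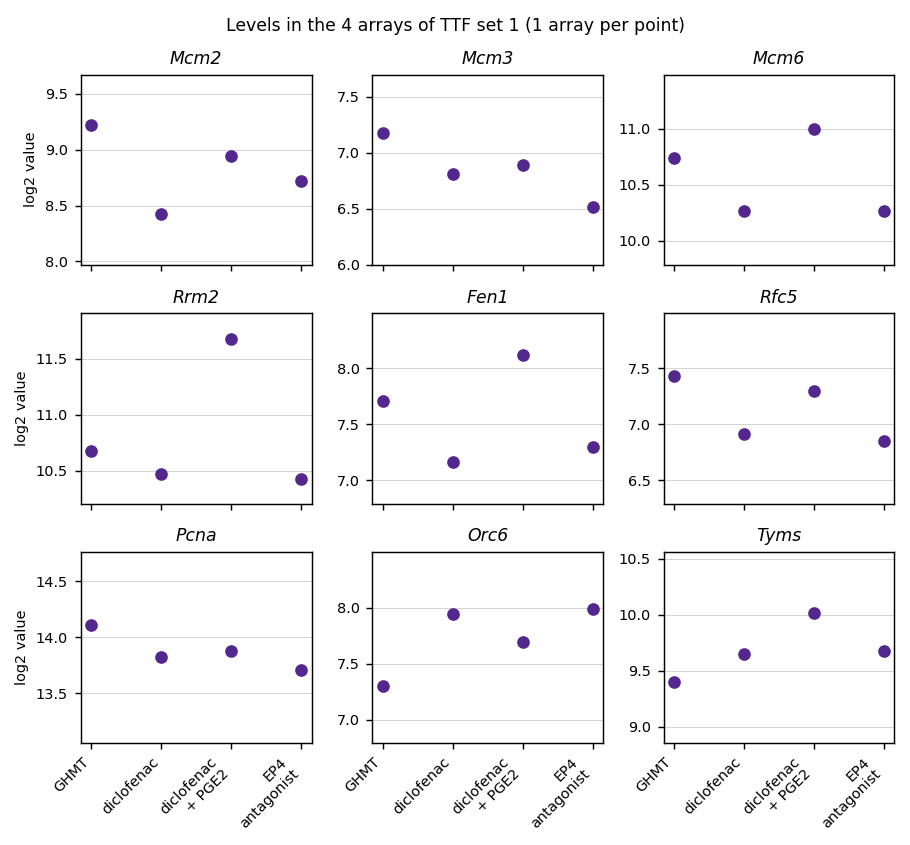
Points are the log2 values of single arrays of set 1 for 9 genes, each panel spanning the same range of log2 units. Mcm6, Fen1 and Rrm2 are highest with diclofenac plus PGE2, whereas Orc6 is lowest with GHMT.

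In set 2, the TGFb and the Wnt inhibitor gave the medians of the module farthest from 0 among the comparisons within sets. The TGFb inhibitor array was lower than GHMT for 31 of 33 members, against 50.4% of all clusters (median -0.52, against -0.01). The Wnt inhibitor array was lower for 29 of 33, against 51.2% (median -0.60, against -0.02). Signals were lower by 1 or more on the log2 scale for 7 members with the TGFb inhibitor (Mcm3, Cdc6, Orc1, Rrm1, Tyms, Rfc5 and Ccne2), against 2.52% of all clusters, and for 4 with the Wnt inhibitor (Mcm10, Gins2, Orc6 and Rrm1), against 1.57%. Background bounds Cdc6, Orc1, Mcm10 and Gins2 among them, so that a 2-fold lower level was measured for 5 members with the TGFb inhibitor and for 2 (Orc6 and Rrm1) with the Wnt inhibitor. Signals were higher by as much for 0 members with either, against 2.84% and 2.53%. Each rests on 1 array and on the same GHMT array, without a replicate check. Against the EP4 antagonist array of set 2 in place of GHMT, a reference chosen after seeing the data, the medians were -0.34 and -0.33.

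For 22 of 33 members both inhibitor arrays lay under both the GHMT and the EP4 antagonist array of set 2, against 20.1% of all clusters and 24.9% of those above background. Rrm1 was at 12.16 with GHMT, 12.05 with the EP4 antagonist, 10.98 with the TGFb inhibitor and 10.98 with the Wnt inhibitor, which is 2.27-fold lower than GHMT with either inhibitor. Tyms was at 10.32, 9.99, 8.91 and 9.54 in the same order, and the TGFb inhibitor difference of -1.41 was the largest of the module. Rfc5 followed at 7.75, 7.12, 6.42 and 6.79, and Ccne2 at 8.32, 7.46, 7.20 and 7.52, where the EP4 antagonist array lay between those of the inhibitors.

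Among the MCM subunits, Mcm3 was at 6.57 with the TGFb inhibitor and 6.60 with the Wnt inhibitor, against 7.59 with GHMT. Mcm6 was at 9.92 and 10.23 against 10.83, Mcm5 at 6.96 and 6.80 against 7.70, Mcm2 at 9.18 and 8.82 against 9.63, and Mcm4 at 8.93 and 9.13 against 9.54. All 5 were thus lower with both, by 0.41 to 1.02. Ccne1, flat in the prostaglandin comparisons, was at 8.68 and 8.83 against 9.57, while E2f1 (6.52 and 6.83 against 6.79) and Pcna (14.09 and 14.04 against 14.39) differed less.

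Origin factors were mixed. Orc1, the ATPase subunit of the origin recognition complex, was at 6.02 with GHMT and at background with the TGFb inhibitor (4.96) and the Wnt inhibitor (5.33), at least 1.04-fold and 1.07-fold lower. Cdc6 was at background in all arrays of set 2, so its difference of -1.14 with the TGFb inhibitor (4.43, and 4.90 with the Wnt inhibitor) gives no fold. Orc6 was at 7.54 with GHMT, 7.07 with the EP4 antagonist, 7.12 with the TGFb inhibitor and 6.30 with the Wnt inhibitor. Of the helicase activation genes, Mcm10 (6.08 with GHMT, 5.30 with the TGFb inhibitor and 5.05 with the Wnt inhibitor) and Gins2 (6.57, 6.17 and 5.52) were at background with the Wnt inhibitor, at least 1.11-fold and 1.56-fold lower. Fen1 was at 7.05 with the TGFb inhibitor and 7.28 with the Wnt inhibitor, against 7.83 with GHMT and 7.02 with the EP4 antagonist, its lowest array of the set. Rrm2 was at 11.26 and 11.59 against 11.76 with GHMT, and Rfc4 at 7.24 and 7.23 against 7.33, so that these genes differed less than Rrm1 and Rfc5.

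Between the inhibitors the module had no common direction. TGFb inhibitor minus Wnt inhibitor had a median of -0.07 over the 33 members (-0.18 over those above background in both arrays). It was negative for 18 and positive for 14, against 48.6% and 50.2% of all clusters. Differences ran from -0.77 to 0.90, and 0 members were 2-fold apart, against 2.26% of all clusters lower and 1.95% higher. The largest differences were Pold1 (0.90, at background), Orc6 (0.82), Cdt1 (-0.77) and Gins2 (0.65, at least 1.18-fold). Cdt1 was at 6.76 with the TGFb inhibitor and 7.53 with the Wnt inhibitor, on either side of its GHMT level of 7.28.

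**Figure D4:**
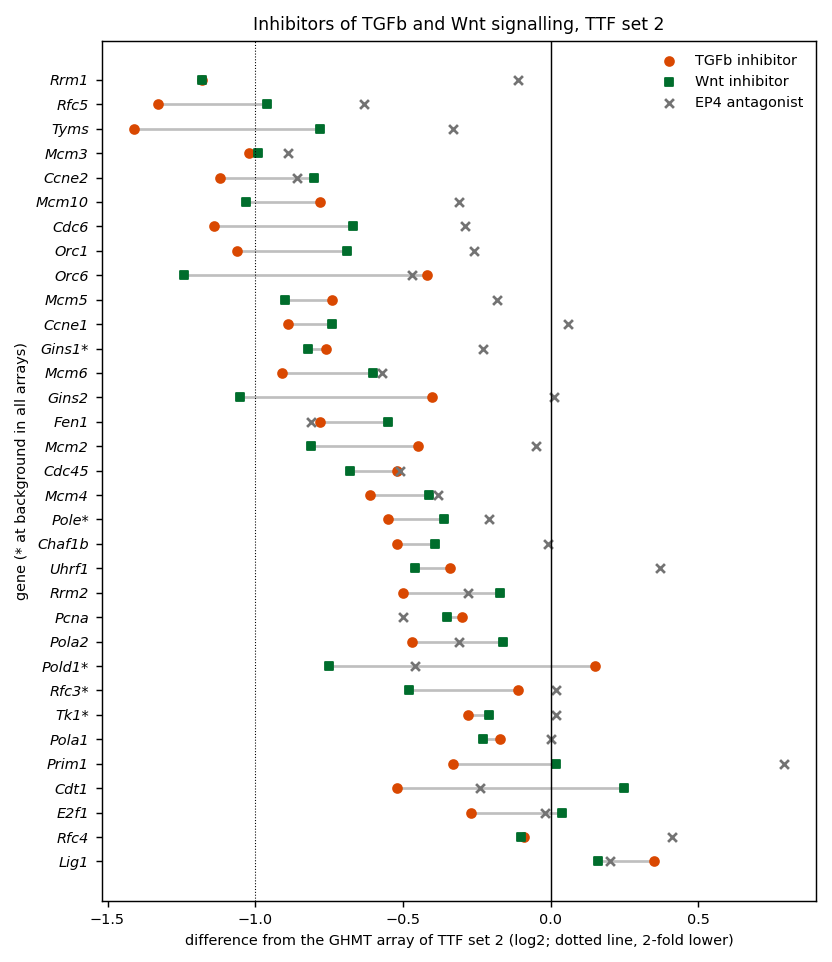
Points give the difference (log2) of the TGFb inhibitor, Wnt inhibitor and EP4 antagonist arrays from the GHMT array of set 2 for each of the 33 genes, ordered by the sum of both inhibitors' differences. Rrm1, at -1.18 with both inhibitors, is at the top, and Lig1 (0.35 and 0.16) at the bottom.

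The module was set beside further cell cycle lists. For inhibited against active, 51.5% of all clusters were negative and 47.8% positive, and limma called 0.378%. Of 47 measured genes among 49 other replication genes, 0 passed limma's threshold for inhibited against active and 37 were negative (median -0.17); the largest in size were Cdc7 (-0.81), the kinase that activates loaded MCM rings, Top2a (-0.78) and Timeless (-0.67), a fork protection factor. Of 38 measured mitosis and G2/M genes of 40 listed, 0 passed and 34 were negative (median -0.22), with Bub1b, a spindle checkpoint kinase, at -0.81, the proliferation marker Mki67 at -0.60 and the centromere histone Cenpa, opposite in sign, at 0.75. Of 29 measured G1/S control genes of 30 listed, 0 passed and 17 were negative (58.6%, near the share of all clusters, median -0.04). Among them Cdkn1b was at -0.77, Cdkn1a at 0.63 and E2f5 at -0.58. Of 19 measured p53 targets of 20 listed, 0 passed and 18 were positive (median 0.34), among them Polk (0.77), Phlda3 (0.54) and Cdkn1a.

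Cdkn1a, the CDK inhibitor p21 and the best known p53 target, a member of the G1/S and p53 lists alike, was at 16.16 with GHMT, 16.81 with diclofenac, 16.81 with the EP4 antagonist and 16.30 with diclofenac plus PGE2 in set 1, and at 16.44 and 17.17 with GHMT and the EP4 antagonist in set 2. It was thus higher in every inhibited array than in the active arrays of its set. With the TGFb and the Wnt inhibitor it was at 16.47 and 16.34, within 0.10 of GHMT. In those arrays 19 and 9 of the 38 mitosis genes were at least 2-fold lower than with GHMT, against 2.52% and 1.57% of all clusters. The other replication genes had medians of -0.31 and -0.36 there, and the p53 targets had medians of -0.07 and -0.15.

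Levels of cell type markers also differed between these arrays. The mean of 6 cardiomyocyte markers was 11.06 with GHMT, 12.60 with diclofenac, 12.12 with the EP4 antagonist and 10.97 with diclofenac plus PGE2 in set 1, and 10.83, 12.16, 12.33 and 12.52 with GHMT, the EP4 antagonist, the TGFb and the Wnt inhibitor in set 2. In each set it was therefore higher in the arrays where replication genes tended to be lower. For inhibited against active, limma with the TTF set as a block called 2 of the 6 higher (Myh6 at 2.99, adjusted p = 0.0186, and Actc1 at 2.36, adjusted p = 0.0099). It called 0.378% of all clusters, in either direction. The mean of the 9 measured fibroblast markers was 15.36 with GHMT, 14.70 with diclofenac, 14.71 with the EP4 antagonist and 15.25 with diclofenac plus PGE2 in set 1, and 15.11, 14.75, 14.68 and 15.09 with GHMT, the EP4 antagonist, the TGFb and the Wnt inhibitor in set 2. In set 1, 9 of 9 were lower than with GHMT with diclofenac (median -0.87) and with the EP4 antagonist (median -0.72), and 8 of 9 were higher with PGE2 added to diclofenac (median 0.41). In set 2 the EP4 antagonist was lower for 6 of 9 (median -0.42), the TGFb inhibitor for 4 (median 0.11) and the Wnt inhibitor for 4 (median 0.13). For inhibited against active the fibroblast markers had a median of -0.47, with 0 called by limma. At an unadjusted p under 0.05, 5 were lower and 0 higher, against 4.41% and 4.26% of all clusters. Col3a1, a fibrillar collagen, had the lowest limma adjusted p of 0.0619 (-0.91 ± 0.17). The part of these markers in the replication gene differences was not tested.

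**Figure D5:**
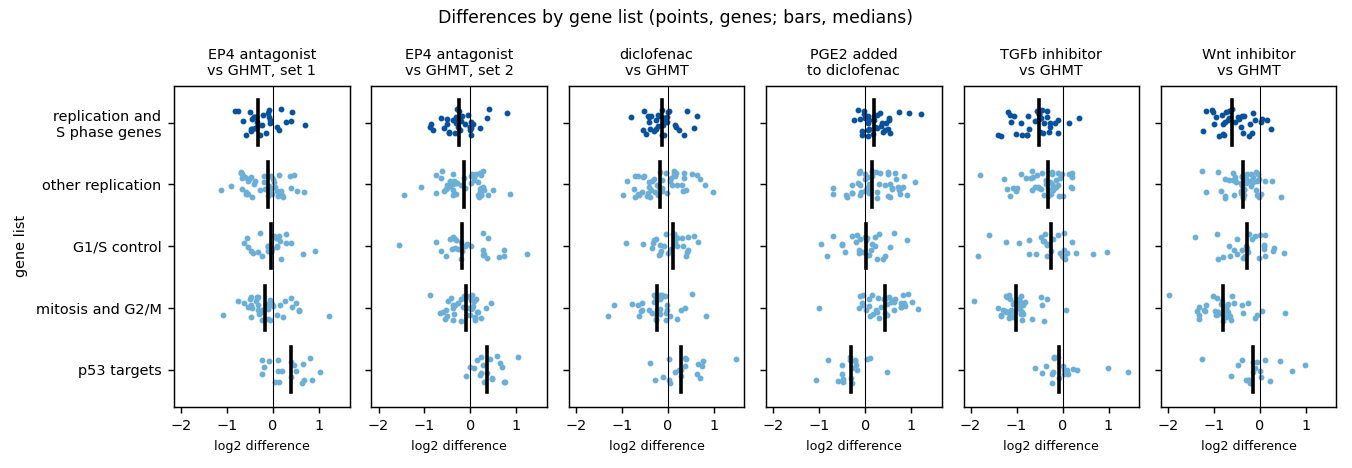
Each point is a gene of the named list, the horizontal axis its log2 difference in the comparison above the panel, and bars are list medians; vertical scatter is for legibility. Medians of replication and mitosis genes lie furthest left with the TGFb and Wnt inhibitors. The medians of p53 targets lie right of 0 with the EP4 antagonist and diclofenac but not with those inhibitors.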

How the data were processed

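The deposited values are log2 expression values from Clariom S Mouse arrays, 1 per sample, which the authors normalized by SST-RMA in Affymetrix Expression Console 1.4, per the submitters' processing notes; whether the sets were normalized together, and the genome build, is not given in the sources used here. Of 28846 rows, 6640 control probe sets were left out, and 19572 of 22206 transcript clusters had a single gene symbol from the platform annotation, 0 had several and 2634 none. Groups and TTF sets came from the sample titles. limma 3.58.1 (lmFit and eBayes, R 4.3.3) was fitted over all clusters with TTF set as a blocking factor. Tests were two-sided, at a Benjamini-Hochberg adjusted p under 0.05. The fit was also run on simulated data, with added differences far larger than those of the members. That run does not show whether differences of the members' size would be called. The titles attach the set number to the fibroblasts, and same-set arrays of GHMT and the EP4 antagonist deviated together from group means (r = 0.724 across clusters), so the sets pair the arrays. Other contrasts are 1 array minus 1. Alternatives were no block, quantile normalization, median centring, a background filter, a trend and robust prior, and leaving out arrays.

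Members and lists were chosen with earlier results of these data known. Members given in every array were the 6 largest in each direction by the smaller within-set EP4 antagonist difference, the 4 largest of each single-array contrast, and a fixed set (Mcm2 to Mcm7, Pcna, Cdc6, Cdt1, Rrm2, Ccne1, Ccne2, E2f1); other lists give the 3 largest genes. Promoter sequences are from RefSeq, build GRCm38.p6.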

Additional observations from a re-analysis of the deposited data

Results flagged for a closer look

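For 9 members the EP4 antagonist minus GHMT difference had opposite signs in the TTF sets, which is 27.3% of the 33 measured, against 47.4% of all clusters, so such genes were not more frequent here than over the array; with 1 array per group in each set, the difference between the sets was not tested. Orc6 was at 0.69 in set 1 and -0.47 in set 2, Mcm10 at 0.42 and -0.31, and Tyms at 0.28 and -0.33. In the other direction, Uhrf1, which guides maintenance DNA methylation at replication forks, was at -0.82 in set 1 and 0.37 in set 2, and Prim1, the primase subunit, at -0.29 and 0.79. Rfc3 (-0.41 and 0.02), Lig1 (-0.08 and 0.20), Ccne1 (-0.08 and 0.06) and Chaf1b (0.09 and -0.01) had a value near 0 in at least 1 set.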

How the results depend on the processing

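The count of 0 members past the threshold was the same under each alternative run for both tested comparisons, the fit without the TTF set as a block among them (0 members in each); without the block the lowest adjusted p of a member was 1. In the pooled comparison 84 clusters passed in all, against 0 without the block, 143 with a trend and robust prior, and from 0 to 192 when an array was left out. There the 8 members at an unadjusted p under 0.05 became 3 without the block, 4 without the EP4 antagonist array of set 1 and 5 without the diclofenac plus PGE2 array. For the EP4 antagonist alone, 0 clusters became 31 with quantile normalization, 8 with the trend and 1 with median centring or the background filter, none of them members. Leaving out an array of the EP4 antagonist comparison leaves no residual degrees of freedom with the block, so no call could be made, and its median difference of -0.22 ranged from -0.33 to -0.24, the values of the single sets. In the pooled comparison the median of -0.22 ranged from -0.24 to -0.18 when an array was left out. With members at background removed, the median of diclofenac plus PGE2 against GHMT was 0.05 in place of 0.16, and that of the TGFb against the Wnt inhibitor -0.18 in place of -0.07. Against the EP4 antagonist array of set 2, added after seeing the data, the TGFb and Wnt inhibitor medians were -0.34 and -0.33 in place of -0.52 and -0.60. Ccne1 changed sign for the EP4 antagonist (from -0.01 to 0.00) with median centring. The cause of these shifts was not tested. Signals at background limit Gins1, Tk1, Pole, Pold1 and Rfc3.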

Other observations

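The promoters of the replication module and of the mitosis list differed in the motifs found by the same search. A CHR element (TTTGAA or TTCGAA, either strand), known from genes expressed in G2 and mitosis, was present for 27 of 34 mitosis and G2/M genes with a window (79.4%), for 5 of 29 replication genes (17.2%) and for 21.7% of all genes. The E2F motif was present for 1 of the 34 mitosis genes, for 12 of the 29 replication genes and for 11 of 40 other replication genes with a window. These are counts of letters in windows of 300 bases and were not tested against each other.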
